A study of Mus musculus with 160 samples.

Results

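A set of 10 genes of T cell receptor assembly and signalling were followed through single cells made from mouse pluripotent stem cells, to describe how far along the T lineage these cells had moved before any thymus was involved. The members were named by symbol: Cd3d, Cd3e, Cd3g and Cd247 (the CD3 chains), Lck, Zap70 and Lat (the proximal kinases and adaptor), Ptcra (the pre-TCR alpha chain) and Rag1 and Rag2 (the recombinase). All 10 of 10 were found among 23420 rows of the expression table. The table held 160 cells, 1 cell per library, of strain C57BL/6. They comprised 65 induced hemogenic endothelial cells (iHECs), 21 day-14 induced hematopoietic progenitor cells (iHPCs, 3 days after iHEC replating), 18 day-17 iHPCs (6 days) and 56 day-21 iHPCs (10 days).

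Every cell descended from pluripotent cells that carry a doxycycline-inducible Runx1 and Hoxa9 cassette in the Rosa26 locus, so the iHECs carried it as well as the iHPCs. The labels give the source as ESC/iPSC without saying which for a given cell. Doxycycline was added during differentiation, before the iHECs were sorted, so the iHECs were exposed to it as well as the iHPCs. The iHPCs then matured on OP9-DL1 stromal feeder cells, which display a Notch ligand, in medium with doxycycline. Sorting gates differed. The iHEC gate was CD31+CD41lowCD45-c-kit+CD201high. At days 14 and 17 the gate took CD45+ cells negative for a lineage panel that included CD3, CD4 and CD8, and at day 21 it read Ter119-CD45+c-kit+CD127+. Cells with surface CD3 were therefore removed at days 14 and 17, and the day-21 gate did not name CD3. Day and gate cannot be told apart. No culture or animal is named for any cell, so each group is 1 sample. No test between groups was possible, SDs and ranges below describe the spread between cells, and the 95% exact (Clopper-Pearson) binomial intervals cover counting error only. For a count of 0, the limit printed is not the exact interval but the share that 3 cells of the group make, and it bounds cells above 1 TPM at this depth and not on cells that express the gene.

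In a developing T cell, the Rag1 and Rag2 proteins cut the T cell receptor gene segments so that they can be rejoined. Once a beta chain has been made, it pairs with the Ptcra product and with the CD3 delta, epsilon, gamma and zeta chains to form the pre-TCR, the first receptor that tests the rearrangement. Lck phosphorylates the CD3 chains, Zap70 docks on the phosphorylated chains, and Lat is the membrane scaffold that Zap70 phosphorylates. Notch signals, Tcf7 and Gata3 act early in this programme, Il2ra (CD25) marks its next steps, and Bcl11b is the factor that goes with commitment to the T lineage.

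The 10 genes lie on 6 chromosomes (GRCm38, GENCODE M21 annotation). Cd3g (chr9:44969572-44980431, minus strand) and Cd3d (chr9:44981786-44987339, plus strand) are divergent neighbours with 1354 bases between them, and Cd3e (chr9:44998740-45009627, minus strand) follows 11400 bases beyond Cd3d. Rag2 (chr2:101624718-101632529, plus strand) and Rag1 (chr2:101638282-101649501, minus strand) are convergent, with 5752 bases between them. The Rag genes also overlap B230118H07Rik on the minus strand, Cd3e overlaps the antisense Gm48719, Ptcra overlaps the lincRNA Gm26904, and Cd247 overlaps Pou2f1. The strand setting of the counting was not given in the sources used here, so reads of overlapping genes cannot be told apart.

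The windows of 300 bases around the annotated start of the pairs Cd3g and Cd3d and Rag2 and Rag1, and of Ptcra, are shown because neighbours within each pair were listed at very unequal levels and because Ptcra went from 0 TPM in every day-14 cell to detection in most day-17 cells. They come from RefSeq (GRCm38.p6) and are written 5′ to 3′ on the gene's own strand. Capitals mark the E-box CANNTG, the letters that E proteins such as E2A and HEB recognise.
Cd3g, chr9:44980382-44980681, minus strand: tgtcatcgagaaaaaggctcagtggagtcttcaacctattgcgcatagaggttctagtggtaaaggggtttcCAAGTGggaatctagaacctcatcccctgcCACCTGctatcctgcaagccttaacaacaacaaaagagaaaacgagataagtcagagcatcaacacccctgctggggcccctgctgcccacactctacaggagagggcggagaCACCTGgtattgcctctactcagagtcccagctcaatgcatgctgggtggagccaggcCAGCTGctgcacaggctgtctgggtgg
Cd3d, chr9:44981536-44981835, plus strand: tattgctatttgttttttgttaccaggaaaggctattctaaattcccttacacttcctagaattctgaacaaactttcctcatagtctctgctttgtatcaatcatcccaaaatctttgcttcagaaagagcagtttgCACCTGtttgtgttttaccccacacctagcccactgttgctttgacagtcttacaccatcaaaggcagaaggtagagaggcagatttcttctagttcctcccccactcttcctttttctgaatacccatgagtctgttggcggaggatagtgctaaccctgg
Rag2, chr2:101624462-101624761, plus strand: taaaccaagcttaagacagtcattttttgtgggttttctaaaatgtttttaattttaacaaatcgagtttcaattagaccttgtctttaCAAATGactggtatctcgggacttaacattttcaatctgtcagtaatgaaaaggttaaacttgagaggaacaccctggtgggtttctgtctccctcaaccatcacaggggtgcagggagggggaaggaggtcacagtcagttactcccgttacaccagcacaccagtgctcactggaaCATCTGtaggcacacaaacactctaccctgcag
Rag1, chr2:101649483-101649782, minus strand: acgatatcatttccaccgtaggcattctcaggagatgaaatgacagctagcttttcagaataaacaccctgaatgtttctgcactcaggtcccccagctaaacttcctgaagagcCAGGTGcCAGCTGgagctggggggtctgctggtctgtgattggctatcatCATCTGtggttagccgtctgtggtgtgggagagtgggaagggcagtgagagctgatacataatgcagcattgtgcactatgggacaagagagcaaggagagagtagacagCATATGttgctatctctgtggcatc
Ptcra, chr17:46763663-46763962, minus strand: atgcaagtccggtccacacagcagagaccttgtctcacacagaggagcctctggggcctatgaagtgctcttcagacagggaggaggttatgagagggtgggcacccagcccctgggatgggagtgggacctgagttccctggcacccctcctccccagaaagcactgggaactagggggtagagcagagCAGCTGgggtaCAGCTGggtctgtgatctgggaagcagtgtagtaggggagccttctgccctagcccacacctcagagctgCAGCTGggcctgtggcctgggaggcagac
All 10 members had at least 1 such window, 13 in all. CANNTG occurred in 13 of 13 windows and in 72.3% of all 32851 mouse windows. The Cd3g window held 4, the Cd3d window 1, the Rag1 window 4, the Rag2 window 2 and the Ptcra window 3. TGTGGT, a Runx core, was found on either strand in 4 of 13 windows and in 16.8% of all windows. TGGGAA, the core bound by the Notch partner Rbpj, was found on either strand in 7 of 13 windows and in 25.6% of all windows. These matches are descriptions of the letters. Of 5 TGTGGT matches 1 shared letters with an E-box, as did 1 of 8 TGGGAA matches, and no binding was measured.

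Before the values, some libraries need naming. A gene counted as detected above 1 TPM, the deposited unit, in which transcript abundance is scaled by transcript length and to the same total in each library. Read depth is not kept in TPM, so the number of genes above 1 TPM stood in for it: its median was lowest in iHECs, at 4926, followed by 6696 among day-21 cells, 8101 for day 17 and 8200 for day 14. No 2 cells had identical values, and the highest Pearson's r between 2 cells, on log2(TPM + 1), was 0.994. Day-17 cells 10 and 11 were close in the members, with Lck at 590 and 573 TPM, Ptcra at 519 and 450, and Rag2 at 42.6 and 44.1. They are counted as 2 cells below, and whether they are separate cells was not tested. Ptprc, which encodes CD45, was not above 1 TPM in 4 iHPCs although the gates required CD45. Among these, day-17 cell 9 had 0.275 TPM of Ptprc, 0.422 TPM of Hoxa9, 2306 TPM of Krt8 and 2177 TPM of Krt18, keratins of epithelial cells. Day-14 cells 4 and 17, with Ptprc at 0, had 103 and 104 TPM of Krt18 and 24.2 and 28.9 TPM of Lck. Day-17 cells 1 and 18 had a mean log2(TPM + 1) level of the 8 myeloid genes of 7.01 and 6.01. In the day-17 cells with Rag2 this level was at most 2.02. Without these 3 day-17 cells (1, 9 and 18), 15 remained at day 17, and values that moved are given beside the results. The 15 included cell 15 (1447 TPM of Krt8 and 986 of Krt18) and cell 3 (226 and 253 TPM), and day-14 cell 15 had 621 and 428 TPM with Hoxa9 at 0. Ptprc was at 50.6 TPM or more in these 3 cells, which were kept. Among day-21 cells, Gata2, a transcription factor of progenitors and mast cells, split into 34 cells below 31 TPM (Gata2-low, at most 9.18 TPM) and 22 cells above (Gata2-high, at least 66.0 TPM). No member was used for this division.

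The CD3 chains were detected late and unequally, in groups of which the day-14 and day-17 gates had removed cells with surface CD3. Cd3g, the gamma chain, was listed at 0 in all 65 iHECs and all 21 day-14 cells, a count of 0 that allows a share of up to 4.62% and 14.3%. At day 17 it was above 1 TPM in 1 of 18 cells, at 8.65 TPM. Among Gata2-low day-21 cells it ranged from 0 through a median of 43.3 to 2773 TPM and was above 1 TPM in 26 of 34 (76.5%, interval 58.8 to 89.3). Cd3g was present in most Gata2-low cells, at levels that differed widely from cell to cell. Its highest levels were in cells 43, 45 and 39, with 5525, 4520 and 4313 genes above 1 TPM, against a Gata2-low median of 6770. Cells 7 and 36 followed, with 6993 and 6600 genes. Among Gata2-high cells it was above 1 TPM in 4 of 22, with a median of 0 and a highest value of 691 TPM. That highest value came from day-21 cell 27, which also had the fewest genes above 1 TPM of the Gata2-high cells, 3932.

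Cd3e, the epsilon chain that pairs with the gamma and delta chains, was listed at 0 in all iHECs and in all day-14 and day-17 cells. It was above 1 TPM in 8 of 34 Gata2-low cells (23.5%, interval 10.7 to 41.2), ranging from 4.11 to 37.6 TPM in those 8, and in 0 of 22 Gata2-high cells. The epsilon chain was seen only among Gata2-low day-21 cells, and at levels far under those of Cd3g. Cd3d, the delta chain, was above 1 TPM in 2 of 18 day-17 cells, at 2.42 and 4.09 TPM. Among Gata2-low cells it was above 1 TPM in 7 of 34, with a highest value of 63.6 TPM, and among Gata2-high cells in 1 of 22, at 1.31 TPM. The 7 Gata2-low cells with Cd3d had a median of 5411 genes above 1 TPM, and the other 27 had 6835. Cd247, the zeta chain that carries most of the signalling motifs of the receptor, did not exceed 0.81 TPM before day 21. It was above 1 TPM in 5 of 34 Gata2-low cells, from 17.7 to 79.3 TPM, and was listed at 0 in all Gata2-high cells.

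Within single Gata2-low cells the order was one-sided. Cd3g exceeded Cd3e in 29 of 34 cells and Cd3e exceeded Cd3g in 0, with 5 cells equal at 0. Cd3g exceeded Cd3d in 29 cells, fell under it in 1 and equalled it in 4. All 8 cells with Cd3e and all 5 cells with Cd247 also had Cd3g, and Cd3g was at least 123 TPM in the cells with Cd3e. The gamma chain was without delta and epsilon in the larger number of its cells: of 26 cells with Cd3g, 6 had Cd3d and 8 had Cd3e. The 3 genes were together in 3 of 34 Gata2-low cells (8.82%, interval 1.86 to 23.7), cells 7, 33 and 39. With detection set above 10 TPM the share was 2.94%, and above 0 TPM it was 11.8%. They were together in 0 of 18 day-17 cells, which allows a share of up to 16.7%, and in 0 of 22 Gata2-high cells. Cell 7 was the only one of the 34 with the zeta chain as well, and it listed Cd3d at 17.6, Cd3e at 29.5, Cd3g at 1455 and Cd247 at 77.9 TPM.

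**Figure D1:**
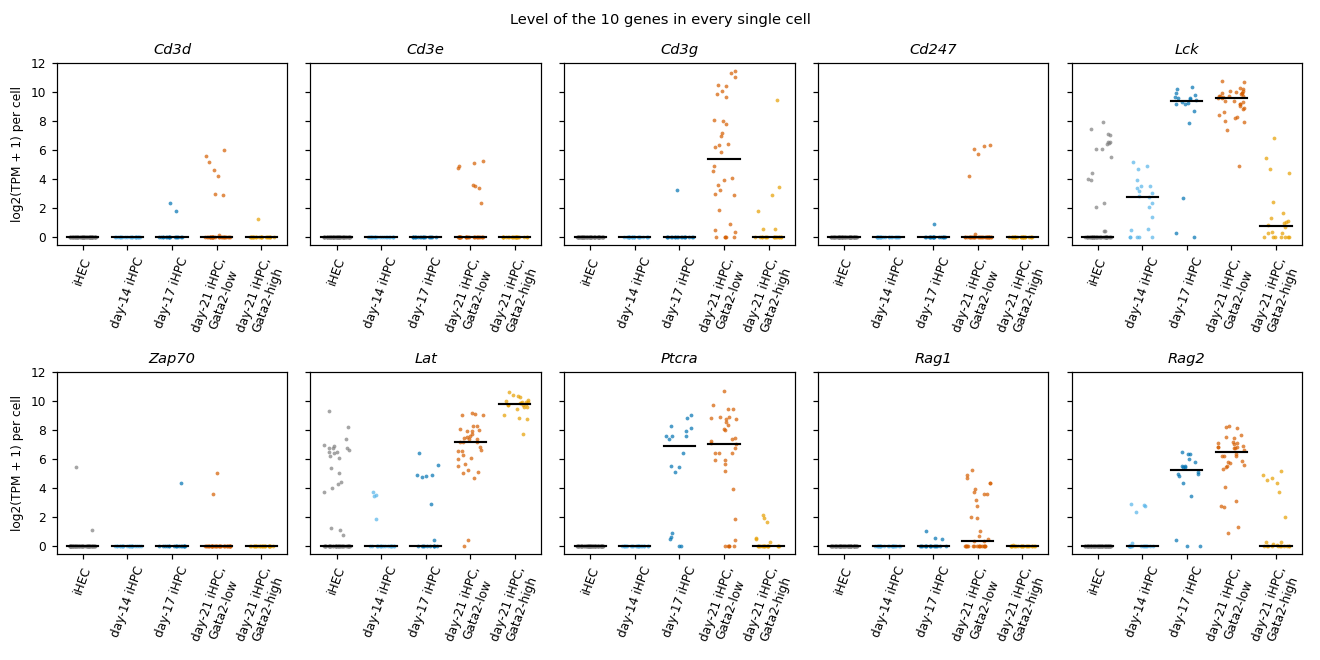
Each panel plots log2(TPM + 1) of one gene on the vertical axis, with 1 point per cell, for iHECs (n = 65), day-14 iHPCs (n = 21), day-17 iHPCs (n = 18) and day-21 iHPCs divided at 31 TPM of Gata2 (n = 34 and 22). Black lines are medians over cells. Cd3g, Rag1, Cd3e and Cd247 stand above 0 mostly in the Gata2-low day-21 column, whereas Lck, Ptcra and Rag2 are already high at day 17.

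Lck was the first member to be detected in most cells of a group. Among 65 iHECs, 16 had more than 1 TPM (24.6%, interval 14.8 to 36.9), and the median was 0 and the highest value 248 TPM. At day 14 it was above 1 TPM in 14 of 21 cells, with a median of 5.78 and a highest value of 34.4 TPM. At day 17 it ranged from 0 through 681 to 1328 TPM and was above 1 TPM in 16 of 18 cells (88.9%, interval 65.3 to 98.6). The day-17 cells thus split into 15 cells from 231 to 1328 TPM, all above every day-14 cell, and the 3 cells named above, at 5.31 TPM or less. Without the 3, the day-17 median was 741 TPM. Lck was above 1 TPM in all 34 Gata2-low day-21 cells, from 28.9 through 771 to 1738 TPM, and in 8 of 22 Gata2-high cells, with a median of 0.69 and a highest value of 111 TPM. The Gata2-low and Gata2-high ranges overlapped, in the Gata2-low cell with the lowest level and the upper Gata2-high cells.

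Zap70 was close to undetected throughout. It was above 1 TPM in 2 iHECs, 0 day-14 cells, 1 day-17 cell, 2 Gata2-low cells and 0 Gata2-high cells, and its highest value in any cell was 43.2 TPM, in an iHEC. Its relative Syk, the kinase that performs the same step in B cells, mast cells and early thymocytes, was above 1 TPM in 17 of 18 day-17 cells, with a median of 25.9 TPM, and in 21 of 34 Gata2-low cells, with a median of 7.48 TPM. Syk was the detected kinase of the pair in most cells with Lck.

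Lat followed another course. The cells above 1 TPM numbered 22 of 65 among iHECs, 4 of 21 at day 14 and 7 of 18 at day 17, with a median of 0 in each and a highest day-17 value of 85.4 TPM. At day 21 it was above 1 TPM in 32 of 34 Gata2-low cells, from 0 through 145 to 576 TPM, and in 22 of 22 Gata2-high cells, from 215 through 914 to 1611 TPM. Lat is used by mast cells as well as T cells, and the mast genes were higher in the Gata2-high cells: Cpa3, a mast carboxypeptidase, had a median of 10662 TPM there and 868 TPM in Gata2-low cells. Lat was thus the one member that was higher in the Gata2-high than in the Gata2-low cells by its median. Lat2, its paralog in B cells and mast cells, was above 1 TPM in 18 of 18 day-17 cells, with a median of 58.3 TPM, and in 32 of 34 Gata2-low cells, with a median of 158 TPM.

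Ptcra was listed at 0 in all 65 iHECs and all 21 day-14 cells. At day 17 it ranged from 0 through 125 to 519 TPM and was above 1 TPM in 13 of 18 cells (72.2%, interval 46.5 to 90.3). Among Gata2-low cells it ranged from 0 through 133 to 1646 TPM and was above 1 TPM in 28 of 34 (82.4%, interval 65.5 to 93.2). Among Gata2-high cells it was above 1 TPM in 3 of 22 and reached 3.43 TPM at most. The pre-TCR alpha chain was thus detected in most day-17 cells, whereas Cd3e and Cd247 were not above 1 TPM in any of them. The day-17 gate had removed cells with surface CD3. Without the 3 day-17 cells that stood apart, the day-17 median of Ptcra was 189 TPM, with 13 of 15 cells above 1 TPM (86.7%, interval 59.5 to 98.3).

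The Rag genes were unequal to each other. Rag2 was listed at 0 in all iHECs and was above 1 TPM in 4 of 21 day-14 cells, at 6.51 TPM or less. At day 17 it ranged from 0 through 37.5 to 86.9 TPM and was above 1 TPM in 15 of 18 cells (83.3%, interval 58.6 to 96.4), all but the 3 cells that stood apart, without which the median was 42.6 TPM. The 3 were set apart by Ptprc or by myeloid level once the data had been seen. Rag2 in all of the other 15 is therefore no separate result. Among Gata2-low cells it ranged from 0.88 through 89.9 to 305 TPM and was above 1 TPM in 33 of 34, and among Gata2-high cells it was above 1 TPM in 7 of 22, at 35.9 TPM or less. Rag2 was carried by nearly every Gata2-low cell.

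Rag1 was listed at 0 in all iHECs and day-14 cells and was above 1 TPM in 1 of 18 day-17 cells, at 1.01 TPM. Among Gata2-low cells it was above 1 TPM in 14 of 34 (41.2%, interval 24.6 to 59.3), with a median of 0.27 and a highest value of 37.3 TPM, and in 0 of 22 Gata2-high cells. All 14 cells with Rag1 also had Rag2, and Rag2 exceeded Rag1 in all 34 Gata2-low cells. The recombinase pair was detected together in 14 of 34 Gata2-low cells and in 1 of 18 day-17 cells. B230118H07Rik, which overlaps both genes, had a median of 40.9 TPM at day 14, 0.26 TPM at day 17, 2.66 TPM in Gata2-low and 84.0 TPM in Gata2-high cells. Its part in the Rag values was not tested.

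**Figure D2:**
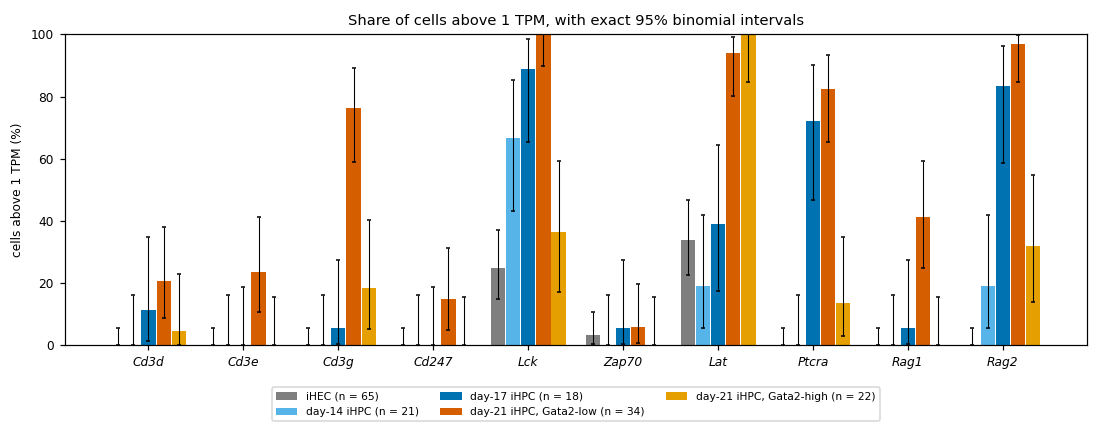
Bars give the percentage of cells above 1 TPM for each gene, by group, and whiskers the exact 95% binomial interval (counting error only). The Gata2-low bar is 76.5% for Cd3g and 41.2% for Rag1, and Lat is the gene whose Gata2-high bar stands at 22 of 22 cells.

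Mean differences were taken on the log2(TPM + 1) scale, which understates low genes, and a difference of at least 1 was counted. From iHECs to day 14 no member reached +1. This was 0 of the 5 that passed the filter (above 1 TPM in more than 30 of all cells) and 0 of all 10. Of 9674 filtered genes 48% reached it, and of all rows 20.6%. Among the 5, Cd3g and Ptcra were listed at 0 in both groups and passed the filter only through later cells. The median of the filtered genes itself moved by 0.93 in this step, and relative to it Lck lay at -0.06 (0.87 as measured) and Lat at -2.29 (-1.36 as measured). Without the iHPCs in which Ptprc was not above 1 TPM, the measured differences of Lck and Lat were 0.61 and -1.49.

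From day 14 to day 17 the count was 4 members, both of the 5 filtered and of all 10, where 15.5% of filtered genes and 7.01% of all rows reached +1. These were Lck (5.77, means 2.26 ± 1.77 and 8.03 ± 3.33, SD over cells), Ptcra (5.38, from 0 to 5.38 ± 3.37), Rag2 (3.96, from 0.53 ± 1.10 to 4.49 ± 2.14) and Lat (1.33, from 0.60 ± 1.31 to 1.93 ± 2.52). The difference was larger than the SD in either group for Lck, Ptcra and Rag2, and for Lat it was smaller than the SD at day 17. Without the 3 day-17 cells that stood apart, the differences were 7.18, 6.42, 4.83 and 1.72. These 3 cells had the lowest day-17 levels of Lck, Ptcra and Rag2 and 0 TPM of Lat. Leaving them out could therefore only raise the 4 differences. No day-14 cell was left out by the same rule, although the day-14 median of the myeloid list mean was 3.33. The median of the filtered genes moved by 0.28, and each of the 4 stayed above 1 relative to it. Ptcra passed the filter only through 13 day-17 and 31 day-21 cells.

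From day 17 to all day-21 cells the count was 2 members, of the 5 filtered and of all 10, where 2.33% of filtered genes and 1.17% of all rows reached +1. These were Lat (5.96, from 1.93 ± 2.52 to 7.89 ± 2.21) and Cd3g (3.38, from 0.18 ± 0.77 to 3.56 ± 3.96). Lck and Ptcra differed by -1.84 and -1.54, in a day-21 group of which 22 cells were Gata2-high. Without the 3 day-17 cells that stood apart these were -3.26 and -2.59, and Rag2 was -1.21. The median of the filtered genes moved by -0.74 in this step, and relative to it Rag2 turned from -0.34 to 0.40.

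From day 17 to the Gata2-low day-21 cells the count was 4 of the 5 filtered members and 5 of all 10, where 1.79% of filtered genes and 0.811% of all rows reached +1. Cd3g differed by 5.14 (to 5.32 ± 3.88), Lat by 4.78 (to 6.71 ± 2.06), Rag2 by 1.46 (to 5.95 ± 1.86), Rag1 by 1.39 (0.11 ± 0.28 to 1.51 ± 1.89) and Lck by 1.22 (to 9.25 ± 1.11). Only for Cd3g and Lat was the difference larger than the SD in either group. The median over the 5 filtered members was 1.46 and that over all filtered genes -0.74. Without the 3 day-17 cells that stood apart the count fell to 2 of the 5 filtered members and 3 of all 10: Lck turned to -0.20, Ptcra to -0.31 from 0.73, and Rag2 to 0.59, whereas Cd3g stayed at 5.11, Lat at 4.40 and Rag1 at 1.37. Cd3g passed the filter with 30 day-21 cells and 1 day-17 cell, and the last 2 comparisons share their day-17 cells.

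The number of the 10 genes above 1 TPM in a single cell had a median of 5 in Gata2-low day-21 cells (SD 1.64, lowest 3, highest 9) and of 2 in Gata2-high cells (highest 4). At day 17 the median was 3.5 (SD 1.49, highest 5), at day 14 it was 1 (highest 3), and in the iHEC group it was 0 (highest 3). No cell had all 10. The 2 Gata2-low cells with 9 were cell 7, which lacked Zap70, and cell 34, which lacked Cd3d. At day 17, 7 of 18 cells had 4 and 2 had 5, and without the 3 cells that stood apart the median was 4 (SD 0.82, lowest 2). Every Gata2-low cell had at least 3 of the genes, as did 14 of 18 day-17 cells.

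**Figure D3:**
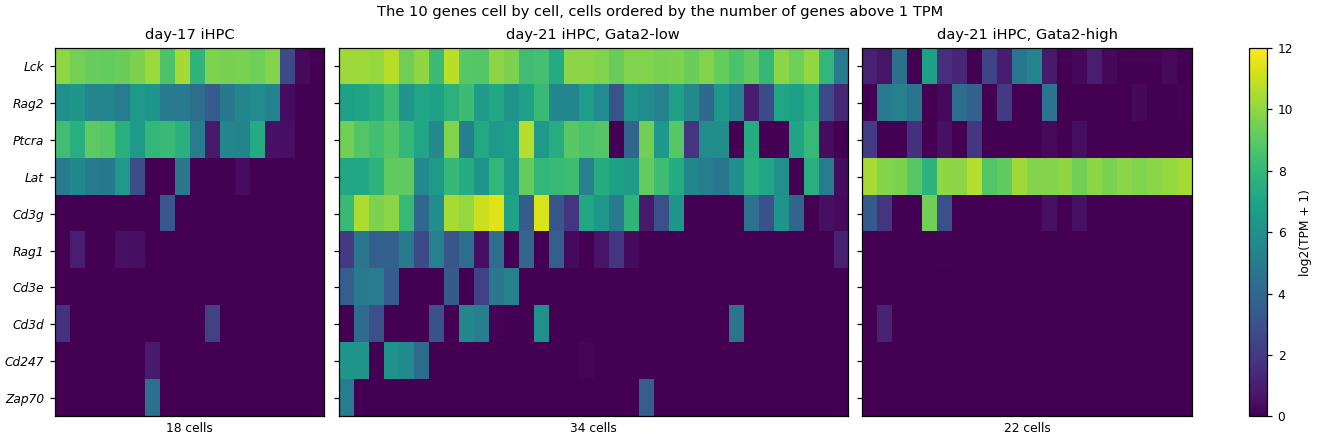
Rows are the 10 genes and columns are single cells of the day-17 (18), Gata2-low day-21 (34) and Gata2-high day-21 (22) iHPCs, ordered by how many of the genes were above 1 TPM, with colour giving log2(TPM + 1). Lck, Rag2 and Ptcra fill most columns of the first 2 blocks, Cd3g and Lat are added in the second, and the third block has Lat in all 22 cells with scattered cells of the other genes.

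At day 17 the coexpressed set was Lck, Ptcra and Rag2. The 3 were together in 13 of 18 cells (72.2%, interval 46.5 to 90.3), which is 13 of the 15 left without the cells that stood apart, and in 0 of 21 day-14 cells. All 13 cells with Ptcra had Lck and Rag2, all 15 cells with Rag2 had Lck, and all 7 cells with Lat had Ptcra. Pearson's r over the 18 cells, on log2(TPM + 1), was 0.94 for Lck with Rag2, 0.69 for Lck with Ptcra and 0.80 for Ptcra with Rag2. These values rest on the cells that stood apart: over the 15 cells with Rag2 they were 0.35, -0.04 and 0.52. The points share the scaling of 1 library each and are given as a description. Over the 18 cells Lck had r = -0.71 with the mean of the 8 myeloid genes, and r = 0.87 with Flt3 and with Kit, receptors of early progenitors. These rest on the same 3 cells: over the other 15 cells the values were 0.66 for the myeloid mean, 0.20 for Flt3 and 0.30 for Kit. Lck had r = -0.05 with Krt8 over 18 cells and -0.72 over the 15.

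Among the day-21 cells Lck, Ptcra and Rag2 were together in 27 of 34 Gata2-low cells (79.4%, interval 62.1 to 91.3) and in 0 of 22 Gata2-high cells. With Cd3g added the count was 22 of 34 (64.7%, interval 46.5 to 80.3), against 1 of 18 at day 17. With Rag1 as well it was 12 of 34 (35.3%, interval 19.7 to 53.5), against 0 of 18. Ptcra with all of Cd3d, Cd3e and Cd3g, the chains of a pre-TCR other than the beta chain and zeta, was found in 3 of 34 cells. The highest correlations among the members over the 34 cells were those of Cd3e with Cd3g (0.60), Lck with Rag2 (0.57) and Cd3g with Rag2 (0.55). Rag1 with Rag2 had 0.37, on 14 cells with Rag1. With the number of genes above 1 TPM, Lck had r = 0.51 and Cd3g -0.29.

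**Figure D4:**
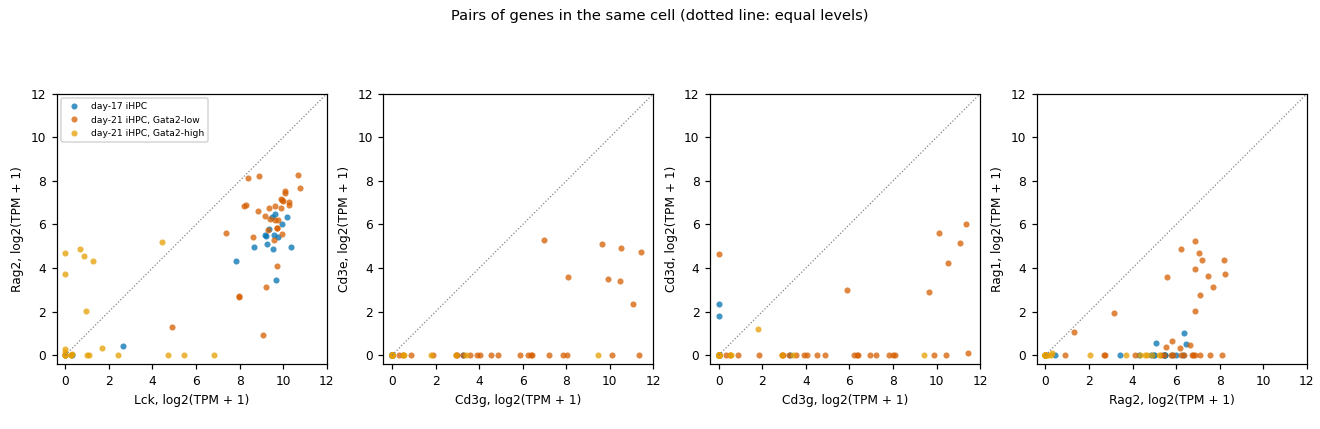
Each panel plots 2 genes in the same cells, log2(TPM + 1) on both axes, for day-17 and both day-21 divisions, with a dotted line where levels are equal. Cd3e and Cd3d points lie on or under the line against Cd3g except 1 Gata2-low cell and the 2 day-17 cells with Cd3d, and every Gata2-low point lies under the line for Rag1 against Rag2.

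The genes whose levels ran most like each member over the 34 Gata2-low cells were searched among 8201 genes above 1 TPM in at least 10 of them. For Cd3g they were Cd160 (r = 0.64), Anxa2 (0.61) and Romo1 (0.59). For Lck they were Ube2v1 (0.88), Ddx5 (0.84) and Psmd13 (0.81), and for Rag2 Chrac1 (0.76), Cenpq (0.69) and Anxa2 (0.67). For Ptcra they were Ubald2 (0.64), Taf1d (0.63) and Maf1 (0.61), and for Lat Cdk5rap1 (0.69), Rnf7 (0.65) and Psme1 (0.63). For Rag1 they were Tle3 (0.61), Prrc2c (0.57) and Gt(ROSA)26Sor (0.57), for Cd3e B230120H23Rik (0.67), Zfp429 (0.64) and Cd163l1 (0.61), for Cd3d Sec61b (0.66), Ndufa2 (0.64) and Rps18 (0.63), and for Cd247 Hps5 (0.56), Fancc (0.56) and Klhl28 (0.54). The members were left out of this search, so their own lists could not appear, and no gene of the other lists was among those named. Each is among the 3 highest of 8201 values over 34 cells.

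Around the members, the rest of the T programme was present in part. Of 12 specification genes, 8 were above 1 TPM in at least 50% of the cells, both at day 17 and in Gata2-low cells, against 3 in Gata2-high cells. Notch1 was above 1 TPM in 32 of 34 Gata2-low cells, Gata3 in 32, Hes1 in 32, Nrarp in 30 and Tcf7 in 26 (median 31.4 TPM, highest 372 TPM). Il2ra was above 1 TPM in 1 of 18 day-17 cells and 18 of 34 Gata2-low cells (52.9%, interval 35.1 to 70.2), and in 0 of 22 Gata2-high cells. Bcl11b was above 1 TPM in 0 of 18 day-17 cells and 1 of 34 Gata2-low cells, at 3.51 TPM. In iHECs and at day 14, where most members were undetected, 4 of the 12 reached the share in each group, among them Hes1 and Nrarp.

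Of the 11 later T genes, 8 were analysed, and 1 of these, Cd27, was above 1 TPM in at least 50% of Gata2-low cells (33 of 34). The count of these genes at that share was already 1 at day 14 and at day 17, and it was 0 in iHECs and in Gata2-high cells. Cd5, a negative regulator of receptor signals, was above 1 TPM in 9 and Cd4 in 3 of the 34, and Cd28 in 1. Cd8a, Cd8b1, Cd6 and Themis were above 1 TPM in none of the 34, which allows a share of up to 8.82% each. The constant-region genes of the T cell receptor were not analysed here. Of 5 gamma-delta genes 2 were analysed, and Blk was above 1 TPM in 1 Gata2-low cell and Sox13 in none. Prss2, a trypsinogen gene of the T cell receptor beta locus (chr6:41521787-41525079, plus strand), 13138 bases from Trbc1, was above 1 TPM in all 34 Gata2-low cells and 10 of 22 Gata2-high cells. Before day 21 it was detected in 16 of 18 cells at day 17, 6 of 21 at day 14 and none of the 65 iHECs. Its Gata2-low median was 715 TPM, and the other 5 trypsin genes of that list were listed at or under 1 TPM in every cell.

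**Figure D5:**
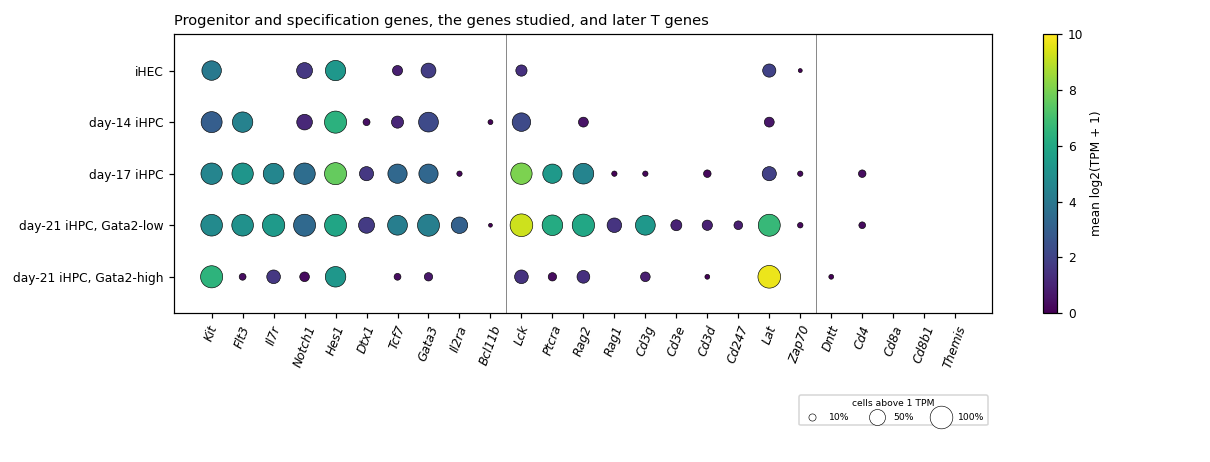
Circles give, for each gene and group, the share of cells above 1 TPM (area) and the mean log2(TPM + 1) (colour), with progenitor and specification genes on the left, the 10 members in the middle and Dntt and later T genes on the right. In the Gata2-low row, Kit, Flt3, Il7r, Lck and Rag2 are near full size, Cd3e, Cd3d and Cd247 are small, Bcl11b is 1 of 34 cells and Cd8a, Cd8b1 and Themis are empty.

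Of 21 signalling partners of the receptor, 10 were above 1 TPM in at least 50% of day-17 cells, 9 in Gata2-low and 11 in Gata2-high cells. Among Gata2-low cells Ptprc was detected in 34, Vav1 in 30, Csk in 27 and Ubash3a in 24. Of 7 innate counterparts, 6 reached that share at day 17 and in both day-21 divisions, and Fcer1g and Tyrobp, adaptors that carry signalling motifs in innate cells, were above 1 TPM in all 34 Gata2-low cells, at medians of 594 and 1213 TPM. The same cells had Cd247 in 5. Of 10 partners of the recombinase, 7 reached the share at day 17 and 4 in Gata2-low cells, led by Hmgb1, Hmgb2 and Xrcc6 in 34 of 34 and Xrcc5 in 30. Dntt, which adds untemplated bases at the joins, was listed at 0 in all 18 day-17 and all 34 Gata2-low cells.

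Early progenitor genes were detected in the same cells as the members. Of 10, all 10 reached the 50% share at day 17 and 8 in Gata2-low cells, among them Il7r in 33, Sfpi1 in 33, Bcl11a in 33 and Hhex in 31 of 34. The day-21 gate took cells with CD127 and c-kit, the products of Il7r and of Kit, which is also on this list. Markers of other cell types were detected in the same cells. Of 8 mast genes, 5 reached the share in Gata2-low cells and 6 in Gata2-high cells: Cpa3 was above 1 TPM in 34, Mcpt4 in 31, Cma1 in 31 and Mcpt1 in 28 of the 34, whereas Tpsb2 and Fcer1a were listed at or under 1 TPM in all 34. The mean log2(TPM + 1) level of the mast list ranged from 1.45 to 4.40 in Gata2-low and from 4.82 to 9.30 in Gata2-high cells, without overlap. Of 16 NK and innate lymphoid genes, 4 reached the share in Gata2-low cells, Id2 in 34, Gzmb in 32, Nkg7 in 30 and Gzma in 29, and Ncr1, Tbx21, Eomes and Xcl1 were above 1 TPM in none. In Gata2-high cells 4 of the 16 also reached the share. The list mean ranged from 0.62 to 2.70 in Gata2-low and from 1.42 to 2.52 in Gata2-high cells. Over the 34 cells Cd3g had r = 0.59 with Gzma, 0.54 with Tcf7, 0.25 with Cpa3 and 0.02 with Il2ra. The part of mast and NK genes in the Cd3g, Lck and Lat values was not tested.

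Of 7 B-lineage genes none reached the share in Gata2-low cells, with Cd79b in 7 and Cd79a in 1, and Pax5 and Ebf1 at or under 1 TPM in all 34. The 8 myeloid genes also gave none, with Prtn3 in 11, Ly6c2 in 10 and Itgam in 9, and Mpo and Lyz2 in 0. Of 8 endothelial genes only Pecam1 reached it, in 31 of 34, with Esam in 8 and Cdh5 and Tek in 0, whereas all 8 reached it in iHECs.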

How the data were processed

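Per the labels and the methods, cDNA of single cells was amplified (Discover-sc WTA Kit V2) before library construction (TruePrep DNA Library Prep Kit V2). Reads were aligned to mm10 with HISAT2 2.1.0 and the deposited TPM values were estimated by the authors with StringTie 1.3.4. SAMtools 0.1.19 and bcl2fastq are also named in the submitters' processing notes, and the annotation is not given in the sources used here. The TPM sums were 988686 to 999108 per cell. No cell was left out of the main values.

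Here each cell took its group from its label. Detection was set above 1 TPM, the pseudocount was 1, and 9674 genes above 1 TPM in more than 30 cells were the filtered genes. Python 3.11.15, numpy 2.4.6, pandas 2.3.3 and scipy 1.17.1 were used, and the functions were tested on simulated data. The members, the Gata2 division and the 17 gene lists were chosen with earlier results of these data known. All members were named. For each list, up to 4 genes with the highest share in Gata2-low day-21 cells were named, with Syk, Lat2, Fcer1g, Bcl11b, Il2ra, Dntt, Tcf7 and Gata3. For members above 1 TPM in at least 5 of those cells, the 3 genes of highest Pearson's r were named. Undetected markers, Prss2, Tyrobp, Blk, Sox13, Hoxa9 and the keratins were named after their values were seen. Alternatives were the thresholds 0 and 10 TPM, the pseudocounts 0.1 and 10, Gata2 at 1 and 100 TPM, size factors by the median of ratios over 382 genes, differences relative to the median, and cells with at least 5000 genes. Leaving out iHPCs low in Ptprc, those with Krt8 above 100 TPM, or the 3 day-17 cells that stood apart, was added after seeing the data. Of the genes first listed, 2 are not reported here and were left out of their lists, and 129 of the remaining 135 were analysed.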

Additional observations from a re-analysis of the deposited data

How the results depend on the processing

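No paired analysis was possible because each group is 1 sample of single cells and no result comes from a test. The median number of members above 1 TPM per cell and the share of cells with Cd3d, Cd3e and Cd3g together moved by less than the spread between cells or the exact interval under every alternative tried, including iHPCs with Ptprc above 1 TPM or with Krt8 at or below 100 TPM, also chosen after seeing the data. The list counts given for day 17 were the same without the 3 cells. The number of members with a mean difference of at least 1 moved most in 2 cases. From iHECs to day 14 it went from 0 to 2 with a pseudocount of 0.1. From day 17 to the Gata2-low day-21 cells it went from 4 to 2 without the 3 day-17 cells that stood apart (an alternative chosen after seeing the data), where Lck turned from 1.22 to -0.20, and to 3 without iHPCs of high Krt8. At 10 TPM no day-14 cell had Rag2 and no day-17 cell had Cd3d, Cd3g or Rag1, so their detection there rests on the threshold. Of the mean differences of single members under alternatives, 11 moved beyond the spread between cells and 298 did not. That of Lck named above turned sign and was counted apart. Some of the 298 also turned sign, within that spread. Among them, Ptcra went from 0.73 to -0.31 where Lck did. Rag2 went from -0.34 to 0.40 from day 17 to all day-21 cells, relative to the median difference. Of the shares of single members 11 moved beyond their interval and 109 did not. TPM keeps no depth, and a value of 0 may be a molecule lost in amplification. Each group may come from 1 culture, so its spread may not stand for that between cultures.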
